A study of Homo sapiens with 12 samples.

Results

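The 36 genes described here encode factors that choose splice sites, and the double-stranded RNA made from their own introns and exons was followed through 6 groups of NCI-H1944, a line of human lung adenocarcinoma cells. By name and family they are 10 SR proteins, 5 SR-like proteins, 17 hnRNP proteins, 2 subunits of U2AF and 2 CLK kinases. They were taken from the 58780 genes of the GENCODE annotation of hg38 by symbol. No measured value entered that rule, but the genes were chosen with earlier results of these data known. Their gene bodies hold, on the strand of the gene, 1854 of the 5254113 genomic regions in which reads were counted. RNA had been pulled down with J2, an antibody against double-stranded RNA, and sequenced with a stranded kit. The study asked which transcripts that form dsRNA need type I interferon signalling once MPS1 has been inhibited for a limited time. Cells labelled IFNAR1sg carried a knockout of IFNAR1, which encodes part of the type I interferon receptor, and cells labelled SCR were the wild-type counterpart. The 6 groups were IFNAR1sg MPS1i, IFNAR1sg IFNb, IFNAR1sg DMSO, SCR MPS1i, SCR IFNb and SCR DMSO, with 2 libraries each. MPS1i was BAY-1217389, an inhibitor of a spindle checkpoint kinase, given at 100 nM for 48 h, with DMSO as the vehicle, and the drug was then washed out. Culture went on for 24 h without or with recombinant interferon beta at 5 ng/ml (IFNb), and the labels do not say whether the IFNb groups first had the DMSO treatment. The sources used here do not say whether the knockout cells were a clone or a pool, or whether the libraries of a group came from separate cultures. Without input RNA, which was not analysed here, the amount of a transcript and its double-stranded share cannot be told apart in these libraries. In these bulk samples fewer cells with a transcript and less of it per cell cannot be told apart.

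SR proteins carry RNA recognition motifs and a domain rich in arginine and serine, and mostly favour the use of nearby splice sites. Many hnRNP proteins bind intronic or exonic silencers and often oppose them. Several of these genes regulate their own output through poison exons, which send the transcript to nonsense-mediated decay, and through detained introns, which keep a polyadenylated transcript in the nucleus. CLK kinases phosphorylate SR proteins and thereby release them from nuclear speckles. Introns also hold inverted repeats, such as pairs of Alu elements, that can fold into double-stranded RNA.

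Regions were put in 2 classes. An intronic region lay in the body of a single gene and shared no base with an exon of its strand, though it could abut one. An exon-sharing region had at least 1 base in common with an exon. Of the 1854 regions 1791 were intronic, 49 were exon-sharing in 24 of the genes, and 14 also lay in another gene and were left out. Most exon-sharing regions took in a single base at the edge of an exon, and how far their reads reach into the exon or the intron beside them cannot be told from the counts. Reads were summed per gene in each class (the intronic sum and the exon-sharing sum) and are given as CPM, counts scaled to a common library size with TMM. An intronic sum could be tested in 31 of the 36 genes, an exon-sharing sum in 20 and both in 18. SRSF1 and HNRNPA1 had no intronic region of their own, and the intronic reads of U2AF1 (4 reads in all 12 libraries), SRSF2 (9 reads) and SRSF5 (32 reads) were too few. Changes are log2 fold changes ± standard error (n = 2 libraries in each group) from edgeR's quasi-likelihood test over all genes. Rose and fell are used of a Benjamini-Hochberg adjusted p under 0.05.

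The exons whose edges carried most of the exon-sharing reads discussed here are printed in the direction of transcription, from GENCODE transcripts on hg38, so that the counted bases can be seen. In each of them the capital marks the base that a counted region shares, except in RBM39 exon 8, where the region begins at the next base. RBM39 exons 8 and 9 also flank the intron with the smallest p in the comparison of MPS1i with DMSO in SCR cells. All of these exons lie inside the coding part of the gene.
RBM39 exon 8 of 17, chr20:35724570-35724722, minus strand: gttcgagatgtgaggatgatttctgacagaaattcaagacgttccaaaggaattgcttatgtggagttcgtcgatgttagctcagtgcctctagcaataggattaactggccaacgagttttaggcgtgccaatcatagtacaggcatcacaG
RBM39 exon 9 of 17, chr20:35721740-35721877, minus strand: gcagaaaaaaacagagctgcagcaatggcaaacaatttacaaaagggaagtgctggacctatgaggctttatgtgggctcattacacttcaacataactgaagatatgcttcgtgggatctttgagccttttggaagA
HNRNPC exon 7 of 9, chr14:21211810-21211923, minus strand: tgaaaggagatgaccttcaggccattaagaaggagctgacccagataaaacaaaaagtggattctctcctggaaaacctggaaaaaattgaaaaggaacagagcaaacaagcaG
HNRNPU exon 9 of 14, chr1:244856728-244856856, minus strand: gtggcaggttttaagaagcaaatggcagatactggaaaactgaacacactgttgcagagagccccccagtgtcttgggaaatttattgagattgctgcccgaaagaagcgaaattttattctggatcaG
PTBP1 exon 3 of 14, chr19:803561-803636, plus strand: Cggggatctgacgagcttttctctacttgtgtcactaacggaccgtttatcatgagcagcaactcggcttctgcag
RBM25 exon 7 of 20, chr14:73088001-73088161, plus strand: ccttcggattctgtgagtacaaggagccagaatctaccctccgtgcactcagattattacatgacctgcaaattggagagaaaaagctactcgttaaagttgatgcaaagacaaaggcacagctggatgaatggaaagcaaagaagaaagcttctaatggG
SRSF3 exon 3 of 6, chr6:36598849-36598983, plus strand: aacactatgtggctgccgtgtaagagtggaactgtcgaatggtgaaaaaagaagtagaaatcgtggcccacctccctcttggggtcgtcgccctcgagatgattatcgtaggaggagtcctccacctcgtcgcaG

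Library totals lay between 3739443 and 7430687 reads. Both SCR IFNb libraries stood apart: 47.9 to 49.6% of their reads were in exon-sharing regions and 18.4 to 18.6% in intronic regions, against 33.2 to 39.7% and 26.2 to 36.4% in the other 10 libraries. They had the 2 lowest totals, and reads in 295367 to 296843 regions, against 566704 to 935974 in the other 10. Their TMM factors were 0.855 to 0.869, against 0.948 to 1.082. The targeted gene fitted the labels, with an exon-sharing sum of IFNAR1 between 1.34 and 2.73 CPM in IFNAR1sg libraries and between 7.08 and 9.54 CPM in SCR libraries. Of 8 lung epithelial markers 6 were measured, while KRT19 and NKX2-1 had no reads that could be counted for them, and none of 6 fibroblast markers had enough reads to be tested. The summed epithelial markers reached 3939 to 4312 CPM in SCR IFNb libraries and 2922 to 3245 CPM in SCR MPS1i libraries, against 1727 to 1847 CPM in SCR DMSO libraries. In IFNAR1sg cells they were 2052 to 2395 CPM with MPS1i and 2668 to 3206 CPM with IFNb, against 1959 to 2000 CPM with DMSO. Exon-sharing reads of KRT8 made up nearly all of these sums, with 4226 and 3847 CPM in SCR IFNb against 1746 and 1642 CPM in SCR DMSO libraries. In SCR IFNb libraries intronic reads of KRT18 and exon-sharing reads of MUC1 were also higher than with DMSO. Intronic reads of CDH1 and KRT7 were lower there, and those of EPCAM overlapped the controls. Of 6 immune markers 3 were measured, at sums of at most 11.5 CPM, and their highest sums were those of SCR MPS1i and SCR IFNb libraries. The part of these differences in the results was not tested.

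After the MPS1i pulse the intronic RNA of many of these splicing factor genes fell in both genotypes, relative to DMSO cells. In IFNAR1sg cells 13 of 31 intronic sums fell and 2 rose, with a median log2 change of -0.44. Over all 14348 genes tested 19.7% fell and 27.1% rose, with a median of 0.16. In SCR cells 16 of 31 fell and 4 rose, with a median of -0.57, against 22% fallen, 22.2% risen and a median of 0.065 over all genes. The genes that fell were thus a larger share of the splicing factors than of all genes in both genotypes, and the risen ones a smaller share. HNRNPC, PTBP1, RBM39, SRSF4, HNRNPA3, RBM25, SON, SRSF11, HNRNPR, U2AF2 and HNRNPU fell in both genotypes. The HNRNPU call in SCR cells was lost without either SCR DMSO library or SCR MPS1i replicate 2 (adjusted p = 0.0673, 0.116 and 0.595), with DESeq2's Wald test and with library sizes from intronic reads. The HNRNPR call in IFNAR1sg cells was lost without IFNAR1sg DMSO replicate 2 (adjusted p = 0.174), without IFNAR1sg MPS1i replicate 2 (adjusted p = 0.0773) or with library sizes from intronic reads (adjusted p = 0.0619). With library sizes taken from the intronic reads alone, the calls in IFNAR1sg cells were 12 lower and 2 higher, and those in SCR cells 12 lower and 5 higher. Over all 14348 genes 15.8% were then lower and 4732 genes higher in IFNAR1sg cells. In SCR cells 14.9% were lower and 4439 genes higher.

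With interferon beta the picture divided by genotype. None of the 31 intronic sums passed the test in IFNAR1sg cells, where the median log2 change was -0.092 and 1.3% of all genes passed in either direction (3 of the 31 at an unadjusted p under 0.05; DESeq2's Wald test also called 0, with 1 at that unadjusted p). In SCR cells 20 of 31 fell and the others did not pass, with a median of -0.85, against 39.3% fallen and a median of -0.59 over all genes. The whole intronic fraction of the SCR IFNb libraries was lower, and this count depends on the scaling. With library sizes from intronic reads, 10 fell and 3 rose, with a median of -0.27 for the 31 and of -0.007 for all genes. Over all 14348 genes 18.7% then fell and 2521 genes rose.

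Among the SR-like proteins, 3 of 5 intronic sums fell with MPS1i in each genotype and 4 of 5 with IFNb in SCR cells. Over all genes 19.7% fell in IFNAR1sg MPS1i, 22% in SCR MPS1i and 39.3% in SCR IFNb cells. RBM39, an SR-like coactivator that resembles U2AF2, had 88.6 and 78.1 CPM in IFNAR1sg MPS1i and 155 and 179 CPM in IFNAR1sg IFNb libraries, against 163 and 186 CPM in IFNAR1sg DMSO libraries. In SCR cells it had 98.1 and 101 CPM with MPS1i and 102 and 102 CPM with IFNb, against 181 and 186 CPM with DMSO. The MPS1i libraries of both genotypes and the SCR IFNb libraries thus formed a low set that did not overlap the others. Its log2 change with MPS1i was -1.07 ± 0.11 in IFNAR1sg cells (adjusted p = 4.9e-16) and -0.89 ± 0.11 in SCR cells (adjusted p = 5.7e-12). With IFNb the change was -0.06 ± 0.10 in IFNAR1sg cells (adjusted p = 0.90) and -0.85 ± 0.11 in SCR cells (adjusted p = 4.6e-11). RBM25, a regulator of BCL-X splicing, had 14.4 and 11.7 CPM in IFNAR1sg MPS1i against 28.9 and 25 CPM in IFNAR1sg DMSO libraries, and 10.4 and 10.0 CPM in SCR MPS1i against 21.8 and 20.6 CPM in SCR DMSO libraries. The change was -1.04 ± 0.19 in IFNAR1sg and -1.06 ± 0.22 in SCR cells. SON, a scaffold of nuclear speckles, had 28.8 and 25.9 CPM with MPS1i and 39.2 and 42.2 CPM with IFNb, against 41.0 and 46.3 CPM with DMSO, in IFNAR1sg cells. In SCR cells SON had 24.8 and 26.6 CPM with MPS1i and 23.7 and 24.3 CPM with IFNb, against 42.9 and 38.2 CPM with DMSO. It fell by 0.68 (SE 0.15) with MPS1i in IFNAR1sg cells and by 0.66 (SE 0.16) in SCR cells on the log2 scale, and by 0.76 (SE 0.17) with IFNb in SCR cells. With library sizes from intronic reads the SON change with IFNb was -0.17 (adjusted p = 0.417). TRA2A, which acts with its paralogue TRA2B on exonic enhancers, was the exception among the well covered genes. Its sums ran from 22.1 to 30.2 CPM over all 12 libraries, its changes from -0.16 to 0.12, and none passed the test.

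SR proteins went both ways with MPS1i. SRSF4, a classical SR protein, had 35.7 and 35.6 CPM in IFNAR1sg MPS1i and 64.2 and 62.3 CPM in IFNAR1sg IFNb libraries, against 62.6 and 64.8 CPM in IFNAR1sg DMSO libraries. In SCR cells it had 27.6 and 33.5 CPM with MPS1i and 25.6 and 22.1 CPM with IFNb, against 63.1 and 62.1 CPM with DMSO. The replicates lay close together and the fall was clear of them. It came to -0.84 ± 0.14 in IFNAR1sg cells (adjusted p = 7.9e-08) and -1.02 ± 0.14 in SCR cells (adjusted p = 1.1e-09) with MPS1i, and to -1.39 ± 0.16 in SCR cells (adjusted p = 1.1e-13) with IFNb. SRSF11 fell with MPS1i by 0.57 (SE 0.18) in IFNAR1sg and by 0.82 (SE 0.19) in SCR cells. In IFNAR1sg cells that call was lost without DMSO replicate 1 (adjusted p = 0.0948) or MPS1i replicate 2 (adjusted p = 0.257). SRSF10, which represses splicing after heat shock, fell in SCR cells with MPS1i (-0.77 ± 0.31) and with IFNb (-1.40 ± 0.36). Its MPS1i call was lost without either SCR MPS1i library (adjusted p = 0.204 and 0.0999) or SCR DMSO replicate 1 (adjusted p = 0.29), without a filter, with DESeq2's Wald test and with library sizes from intronic reads. The IFNb call of SRSF10 was lost without SCR IFNb replicate 2 (adjusted p = 0.0635) or with those library sizes (-0.82, adjusted p = 0.068). With MPS1i in SCR cells 3 small intronic sums rose, those of SRSF7, SRSF3 and SRSF6. SRSF7, a shuttling SR protein, had 8.09 and 6.70 CPM with MPS1i against 3.13 and 3.33 CPM with DMSO there (1.18 ± 0.38, adjusted p = 0.0068). SRSF3, the smallest SR protein and a regulator of its own poison exon, had 3.90 and 3.49 CPM in IFNAR1sg MPS1i against 0.728 and 2.09 CPM in IFNAR1sg DMSO libraries, and 5.81 and 2.82 CPM in SCR MPS1i against 1.5 and 1.27 CPM in SCR DMSO libraries. Its change was 1.30 ± 0.52 in IFNAR1sg and 1.57 ± 0.55 in SCR cells, from 162 reads in all. The IFNAR1sg call of SRSF3 was lost without IFNAR1sg DMSO replicate 1 (0.79, adjusted p = 0.281), without either IFNAR1sg MPS1i library (adjusted p = 0.091 and 0.0582) and without TMM. The SCR call was lost without SCR DMSO replicate 2 (adjusted p = 0.0557) or SCR MPS1i replicate 1 (adjusted p = 0.227), and DESeq2's Wald test made neither call. SRSF6 rested on 86 reads and had no read in 1 of the SCR DMSO libraries, and it did not pass without SCR MPS1i replicate 1 (adjusted p = 0.0807) or SCR DMSO replicate 2 (adjusted p = 0.184).

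hnRNP genes made up the largest group. With MPS1i 6 of 16 intronic sums fell and 1 rose in IFNAR1sg cells, and 9 of 16 fell and 1 rose in SCR cells. With IFNb 11 of 16 fell in SCR cells. Over all genes 19.7% fell and 27.1% rose in IFNAR1sg MPS1i cells, 22% fell and 22.2% rose in SCR MPS1i cells, and 39.3% fell in SCR IFNb cells. HNRNPC binds uridine tracts and keeps Alu-derived exons out of transcripts. Its intronic sum was 113 and 96.6 CPM in IFNAR1sg MPS1i and 194 and 210 CPM in IFNAR1sg IFNb libraries, against 225 and 217 CPM in IFNAR1sg DMSO libraries. In SCR cells it was 93.0 and 97.3 CPM with MPS1i and 70.3 and 69.5 CPM with IFNb, against 234 and 213 CPM with DMSO. Both SCR IFNb libraries were below all others, and the IFNAR1sg IFNb libraries were close to their DMSO controls. The change with MPS1i was -1.08 ± 0.10 in IFNAR1sg cells (adjusted p = 3.5e-17) and -1.23 ± 0.11 in SCR cells (adjusted p = 7.6e-20). With IFNb it was -0.13 ± 0.10 in IFNAR1sg cells (adjusted p = 0.74) and -1.68 ± 0.11 in SCR cells (adjusted p = 4.7e-28).

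PTBP1, a repressor that binds pyrimidine-rich tracts, had an intronic sum of 18.1 and 15 CPM in IFNAR1sg MPS1i and 38.0 and 42.7 CPM in IFNAR1sg IFNb libraries, against 45.3 and 54.0 CPM in IFNAR1sg DMSO libraries. In SCR cells it was 12.6 and 14.6 CPM with MPS1i and 17.0 and 14.8 CPM with IFNb, against 44.6 and 34.2 CPM with DMSO. With MPS1i PTBP1 fell in both genotypes, -1.59 ± 0.16 in IFNAR1sg cells (adjusted p = 2.1e-15) and -1.52 ± 0.18 in SCR cells (adjusted p = 2.5e-12). PTBP2, its neuronal paralogue, passed the test in SCR cells. It had 26.6 and 27.8 CPM in IFNAR1sg MPS1i against 32.4 and 32.3 CPM in IFNAR1sg DMSO libraries (-0.25 ± 0.17, adjusted p = 0.21), and 13.1 and 12.7 CPM in SCR MPS1i against 28.4 and 30.1 CPM in SCR DMSO libraries (-1.18 ± 0.19, adjusted p = 1.5e-07). PTBP3, the third paralogue, had 52.5 and 45.6 CPM with MPS1i and 51.1 and 49.5 CPM with IFNb, against 54.8 and 51.4 CPM with DMSO, in IFNAR1sg cells. In SCR cells PTBP3 had 42.0 and 40.2 CPM with MPS1i and 35 and 29.8 CPM with IFNb, against 57.8 and 63.2 CPM with DMSO. It did not pass the test with MPS1i in IFNAR1sg cells (-0.11 ± 0.13, adjusted p = 0.51) and fell in SCR cells with MPS1i (-0.56 ± 0.14) and with IFNb (-0.90 ± 0.15; -0.32 with library sizes from intronic reads, adjusted p = 0.063).

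HNRNPF, which binds runs of guanines, had 30.8 and 29.1 CPM with MPS1i and 39.6 and 43.8 CPM with IFNb, against 36 and 39.5 CPM with DMSO, in IFNAR1sg cells. HNRNPF in SCR cells had 20.7 and 22.7 CPM with MPS1i and 14.6 and 15.4 CPM with IFNb, against 33.3 and 34.5 CPM with DMSO. Only the SCR changes of HNRNPF passed the test (-0.63 ± 0.17 with MPS1i and -1.18 ± 0.19 with IFNb). HNRNPA3, a relative of HNRNPA1, had 7.22 and 8.59 CPM in IFNAR1sg MPS1i against 18.9 and 13.8 CPM in IFNAR1sg DMSO libraries, and 5.81 and 4.93 CPM in SCR MPS1i against 18.9 and 13.5 CPM in SCR DMSO libraries. Its fall was -1.03 ± 0.24 in IFNAR1sg and -1.61 ± 0.27 in SCR cells. HNRNPA2B1, which binds purine-rich motifs and takes part in RNA transport, was the hnRNP gene that rose. It had 31.4 and 26.8 CPM in IFNAR1sg MPS1i against 13.3 and 13.4 CPM in IFNAR1sg DMSO libraries (1.12 ± 0.20, adjusted p = 9.1e-07), and 27.1 and 21.9 CPM in SCR MPS1i against 12.7 and 9.82 CPM in SCR DMSO libraries (1.10 ± 0.21, adjusted p = 6.9e-06). Most of these reads lay in regions that also cover exons of NFE2L3, a transcription factor gene on the other strand, and without such regions the SCR change with MPS1i was 0.53 (adjusted p = 0.349) and its fall with IFNb in SCR cells lost its call (adjusted p = 0.122), as it did without SCR DMSO replicate 1 (adjusted p = 0.134) or SCR IFNb replicate 2 (adjusted p = 0.297). The rise of HNRNPA2B1 with MPS1i in IFNAR1sg cells kept its call when regions over exons of the other strand were left out. HNRNPL, HNRNPK and HNRNPDL did not pass the test with either treatment in either genotype. Of the remaining families, U2AF2, which recognises the pyrimidine tract before an exon, fell with MPS1i in IFNAR1sg cells (-0.83 ± 0.24) and in SCR cells (-0.74 ± 0.27). The SCR call of U2AF2 was lost in the fits without SCR DMSO replicate 1, SCR MPS1i replicate 1 or SCR MPS1i replicate 2, at adjusted p of 0.122, 0.104 and 0.126. The kinase CLK4 fell with MPS1i in IFNAR1sg cells (-1.18 ± 0.38) and CLK1 with IFNb in SCR cells (-1.76 ± 0.47). The CLK4 call was lost without IFNAR1sg DMSO replicate 1 (adjusted p = 0.121) or MPS1i replicate 2 (adjusted p = 0.188), and the CLK1 call without SCR IFNb replicate 1 (adjusted p = 0.133) or with library sizes from intronic reads (adjusted p = 0.0501).

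**Figure D1:**
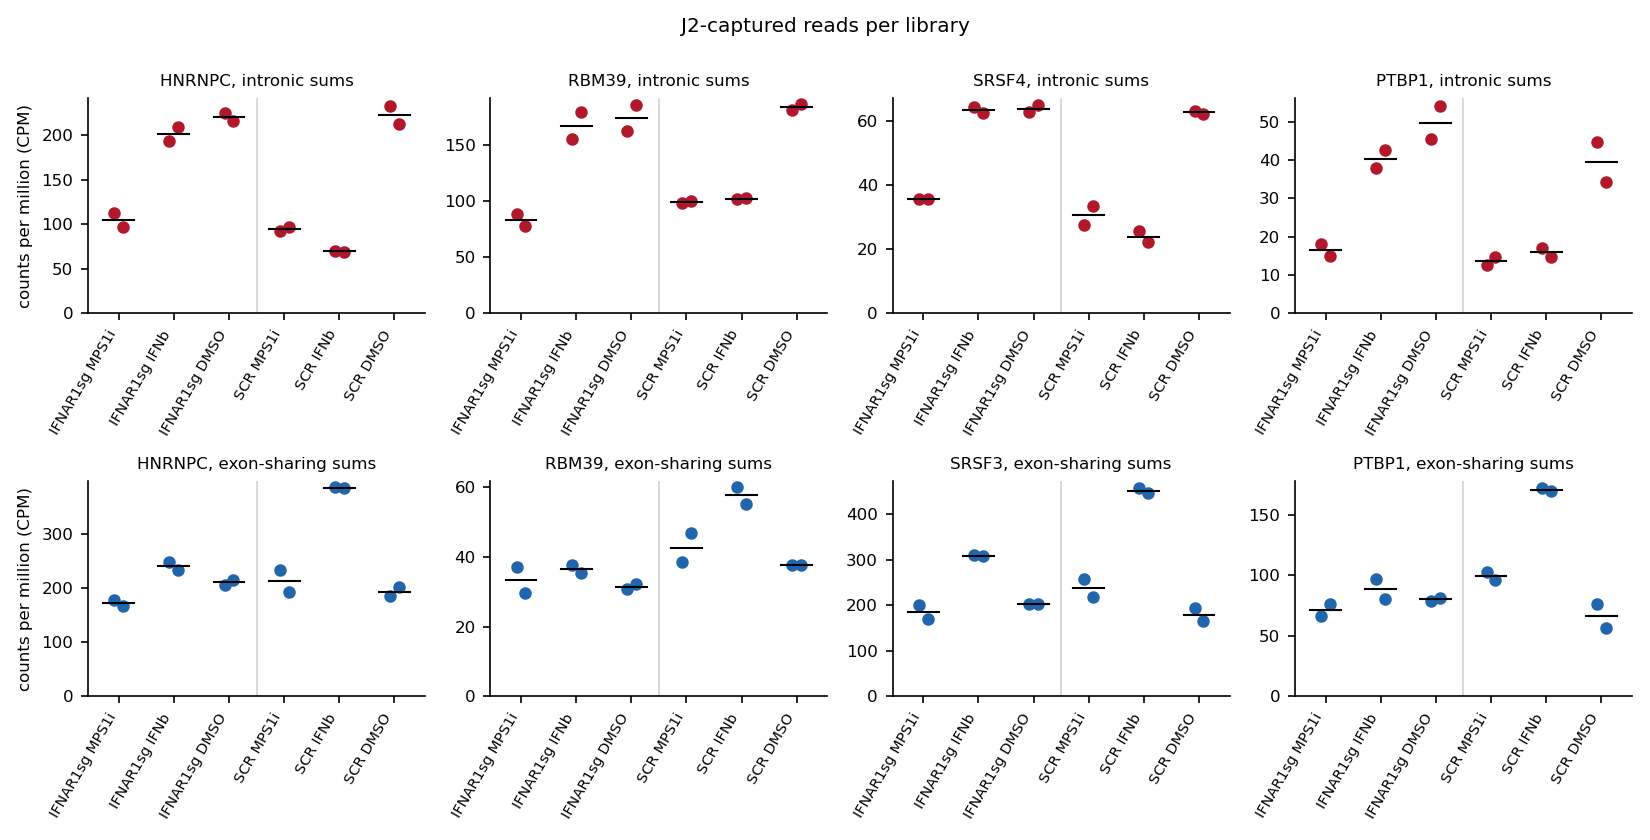
Intronic sums (upper row) and exon-sharing sums (lower row) in CPM for 4 genes each; every point is a library, the bar its group mean, and groups run IFNAR1sg MPS1i, IFNb, DMSO, then SCR MPS1i, IFNb, DMSO. For HNRNPC the intronic points sit at 69.5 and 70.3 CPM in SCR IFNb against 213 and 234 CPM in SCR DMSO, while its exon-sharing points sit at 385 and 386 CPM against 185 and 202 CPM.

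The exon-sharing sums took another course. With MPS1i none of 20 passed the test in IFNAR1sg cells (median 0.07; 6 at an unadjusted p under 0.05; DESeq2's Wald test 0, with 3 at that unadjusted p), where 16.6% of all 6036 genes passed in either direction. This count turned with the scaling. With library sizes from intronic reads 4 were higher, against 1264 of the 6036 genes. Without TMM 2 were lower, against 6.8% of all genes. In SCR cells 9 of 20 rose with MPS1i and none fell, with a median of 0.38, against 25.6% risen and a median of 0.35 over all genes. That count was 4 without SCR DMSO replicate 2 or without SCR MPS1i replicate 1, 3 without TMM (median 0.22) and 14 with library sizes from intronic reads (median 0.61). Over all 6036 genes 899 rose in SCR MPS1i cells without TMM (median 0.19) and 2585 with library sizes from intronic reads (median 0.58). With IFNb 2 of 20 rose in IFNAR1sg cells, SRSF3 and HNRNPA2B1, against 3.25% of all genes. In SCR cells 17 of 20 rose with IFNb, with a median of 0.90, against 51.7% risen and a median of 0.74 over all genes.

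The exon-sharing sum of SRSF3 came almost wholly from the region that starts at the last base of exon 3 printed above. It was 200 and 170 CPM in IFNAR1sg MPS1i and 309 and 308 CPM in IFNAR1sg IFNb libraries, against 202 and 203 CPM in IFNAR1sg DMSO libraries. The SRSF3 sum in SCR cells was 258 and 219 CPM with MPS1i and 457 and 446 CPM with IFNb, against 193 and 165 CPM with DMSO. SRSF3 was thus higher with IFNb in every library of both genotypes, by 0.61 ± 0.12 in IFNAR1sg cells (adjusted p = 0.0016) and by 1.33 ± 0.12 in SCR cells (adjusted p = 5.5e-11). The SCR rise with MPS1i was 0.41 ± 0.12 (adjusted p = 0.012) and was lost without TMM (adjusted p = 0.129), with only the groups compared (adjusted p = 0.105) or without SCR DMSO replicate 2 (adjusted p = 0.099) or SCR MPS1i replicate 1 (adjusted p = 0.0827). The exon-sharing sum of HNRNPA2B1 was 132 and 116 CPM in IFNAR1sg IFNb against 72.2 and 103 CPM in IFNAR1sg DMSO libraries, and 186 and 194 CPM in SCR IFNb against 99.5 and 121 CPM in SCR DMSO libraries. In IFNAR1sg cells its rise of 0.50 ± 0.15 (adjusted p = 0.046) was lost without DMSO replicate 1 (adjusted p = 0.536) or IFNb replicate 1 (adjusted p = 0.475), without TMM (adjusted p = 0.0714) and with DESeq2's Wald test (adjusted p = 0.0684).

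In SCR cells RBM25 and PTBP1 rose in exon-sharing reads while their introns fell. The exon-sharing sum of RBM25 was 102 and 106 CPM with MPS1i and 123 and 93.5 CPM with IFNb, against 79.0 and 90.0 CPM with DMSO, in IFNAR1sg cells. The RBM25 sum in SCR cells was 142 and 112 CPM with MPS1i and 164 and 162 CPM with IFNb, against 66.4 and 69.5 CPM with DMSO. All 4 treated SCR libraries lay above both of their controls, by 0.90 ± 0.14 with MPS1i (adjusted p = 1.4e-05) and by 1.26 ± 0.15 with IFNb (adjusted p = 6.0e-09). The exon-sharing sum of PTBP1 was 66.8 and 76.0 CPM with MPS1i and 96.8 and 80.6 CPM with IFNb, against 79.0 and 81.1 CPM with DMSO, in IFNAR1sg cells. In SCR cells PTBP1 had 102 and 96.2 CPM with MPS1i and 172 and 170 CPM with IFNb, against 76.6 and 56.6 CPM with DMSO. The SCR rises were 0.57 ± 0.15 with MPS1i (adjusted p = 0.0032) and 1.35 ± 0.15 with IFNb (adjusted p = 1.4e-09), and the first was lost without SCR DMSO replicate 2 (adjusted p = 0.0771). In IFNAR1sg cells neither change of PTBP1 passed (-0.17 ± 0.14 and 0.15 ± 0.14), and neither did those of RBM25.

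HNRNPC and RBM39, whose introns fell with MPS1i in both genotypes, had exon-sharing sums that did not pass the test with MPS1i in either. For HNRNPC these sums were 179 and 166 CPM in IFNAR1sg MPS1i against 206 and 215 CPM in IFNAR1sg DMSO libraries, and 233 and 192 CPM in SCR MPS1i against 185 and 202 CPM in SCR DMSO libraries. With IFNb they were 248 and 233 CPM in IFNAR1sg cells, and in SCR cells 386 and 385 CPM, a rise of 0.99 ± 0.12 (adjusted p = 1.9e-08). RBM39 had 37.1 and 29.5 CPM in IFNAR1sg MPS1i against 30.8 and 32.1 CPM in IFNAR1sg DMSO libraries, and 38.4 and 46.7 CPM in SCR MPS1i against 37.5 and 37.7 CPM in SCR DMSO libraries. With IFNb its SCR libraries had 60 and 55.1 CPM, a rise of 0.61 ± 0.17 (adjusted p = 0.0022) that was 0.29 without TMM (adjusted p = 0.143) and 0.40 with only the groups compared in the fit (adjusted p = 0.0566). HNRNPU, a scaffold of chromatin and nuclear RNA, had all its exon-sharing reads in the region of 89 bp that begins at the last base of exon 9. They came to 565 and 418 CPM with MPS1i and 719 and 618 CPM with IFNb, against 578 and 589 CPM with DMSO, in IFNAR1sg cells. In SCR cells HNRNPU had 755 and 670 CPM with MPS1i and 982 and 1027 CPM with IFNb, against 546 and 512 CPM with DMSO. It rose with MPS1i (0.43 ± 0.12; 0.26 without TMM, adjusted p = 0.0906) and with IFNb (0.93 ± 0.12) in SCR cells. Of the SR proteins SRSF11 had 197 and 205 CPM with MPS1i against 152 and 172 CPM with DMSO in IFNAR1sg cells, and 234 and 171 CPM with MPS1i against 130 and 146 CPM with DMSO in SCR cells. It rose in SCR cells with MPS1i (0.55 ± 0.14) and with IFNb (0.81 ± 0.14), and the MPS1i call was lost without SCR MPS1i replicate 1 (adjusted p = 0.0812). HNRNPL, SRSF9 and SRSF2 were the 3 exon-sharing sums that did not pass with IFNb in SCR cells.

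**Figure D2:**
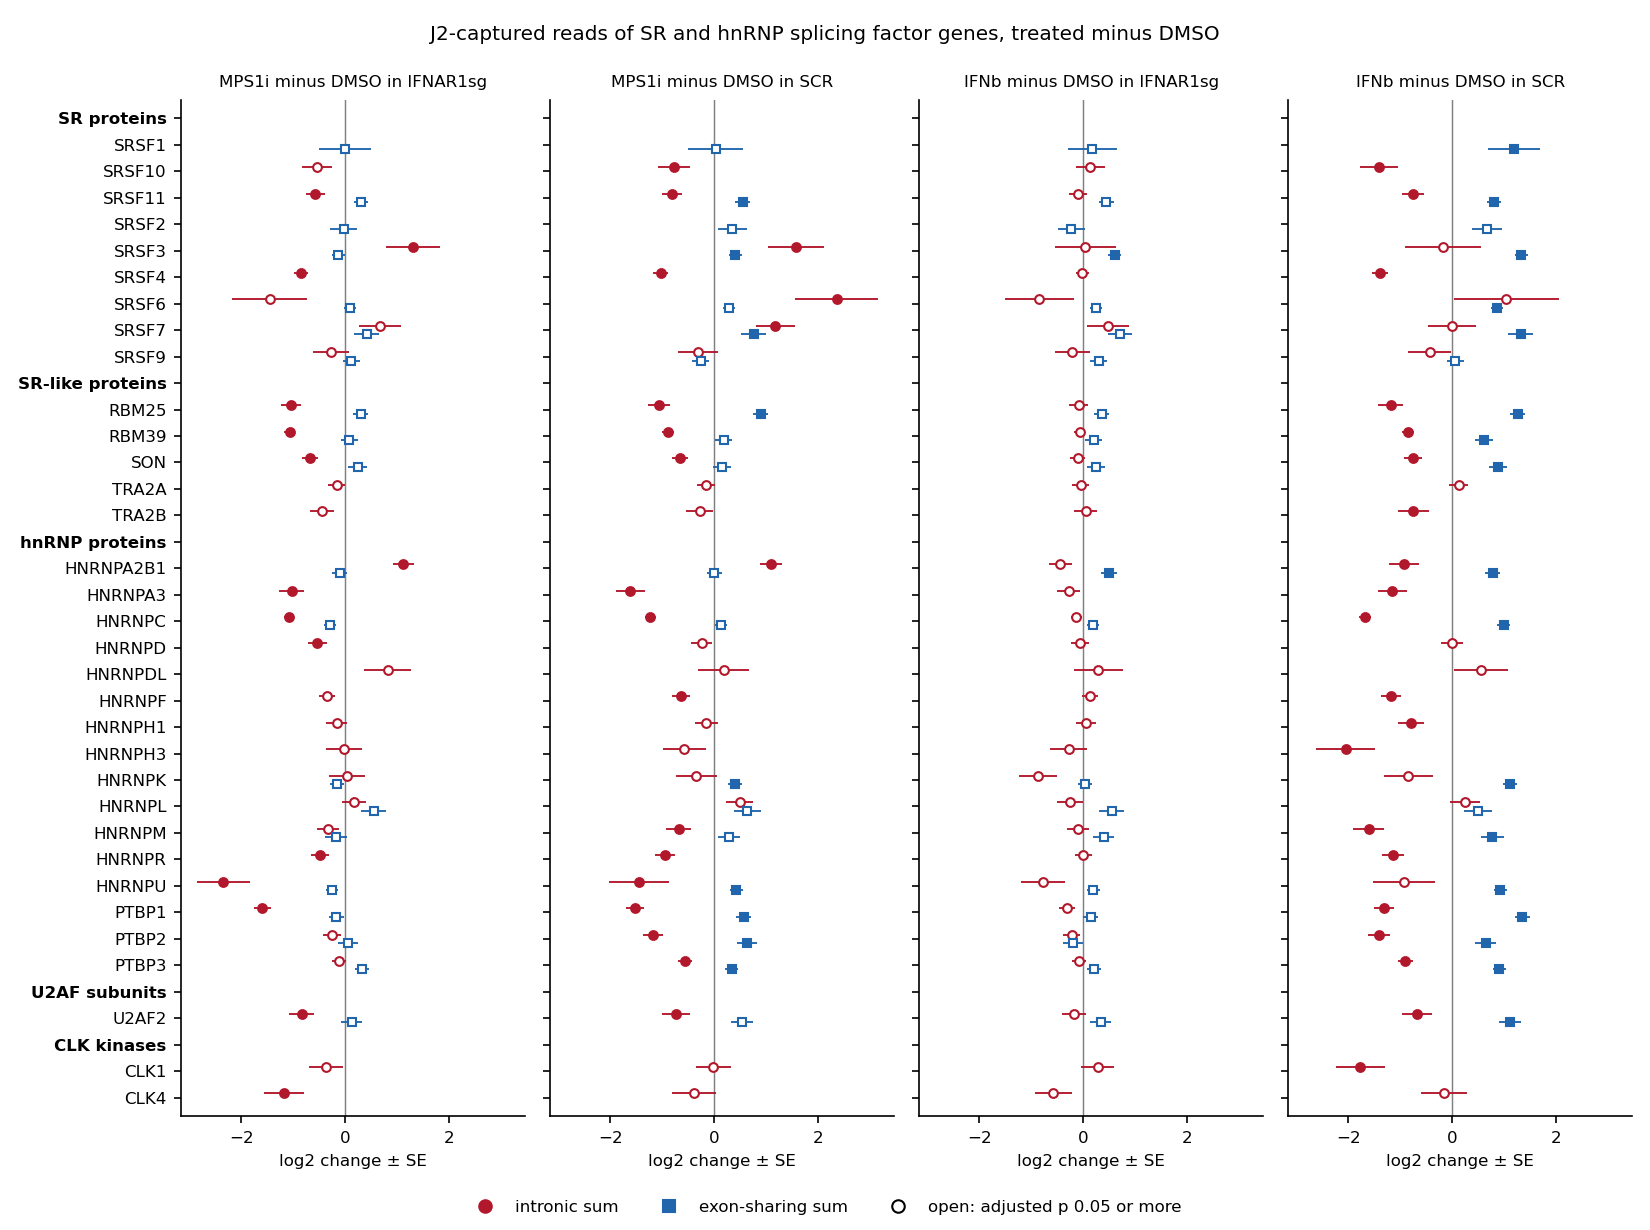
Log2 change ± standard error of the intronic sum (circles) and of the exon-sharing sum (squares) of each gene, in panels for MPS1i in IFNAR1sg, MPS1i in SCR, IFNb in IFNAR1sg and IFNb in SCR cells, each against DMSO; open symbols did not pass an adjusted p of 0.05. Circles lie mostly left of 0 and squares right of it in SCR cells, with 20 intronic falls and 17 exon-sharing rises with IFNb, and in IFNAR1sg cells with IFNb nearly all symbols are open and near 0.

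The change of the intronic reads was then set against the change of the exon-sharing reads of the same gene and library, a difference that does not depend on library scaling. Positive values mean that intronic reads rose relative to exon-sharing reads. With MPS1i 10 of 18 differences were lower and 2 higher in IFNAR1sg cells, with a median of -0.62, against 22.1% lower, 3.55% higher and a median of -0.31 over 4707 genes. In SCR cells 11 of 18 were lower and 3 higher, with a median of -0.95, against 34.5% lower, 3% higher and a median of -0.55. With IFNb 1 of 18 was lower in IFNAR1sg cells, that of HNRNPA2B1 (-0.93 ± 0.24, adjusted p = 0.042), against 0.68% of all genes. All 18 were below 0 there, with a median of -0.50 against -0.18 over all genes, and 9 had an unadjusted p under 0.05. In SCR cells 15 of 18 were lower with IFNb, with a median of -1.76, against 63.8% and a median of -1.38. The most negative SCR differences with MPS1i were those of PTBP1 (-2.09 ± 0.22) and RBM25 (-1.93 ± 0.24), and with IFNb those of PTBP1 (-2.67 ± 0.23) and HNRNPC (-2.67 ± 0.16). In IFNAR1sg cells with MPS1i PTBP1 was at -1.42 ± 0.20, RBM25 at -1.34 ± 0.21, RBM39 at -1.15 ± 0.18 and HNRNPC at -0.79 ± 0.15. The 3 higher differences in SCR MPS1i cells were those of HNRNPA2B1, SRSF3 and SRSF6. Those of SRSF3 and SRSF6 did not pass without SCR MPS1i replicate 1 (adjusted p = 0.388 and 0.0625) or SCR DMSO replicate 2 (adjusted p = 0.132 and 0.14), and that of HNRNPA2B1 was lost without regions over exons of the other strand (0.50, adjusted p = 0.329). Without IFNAR1sg MPS1i replicate 2 the count of differences called in IFNAR1sg cells was 7. The HNRNPA2B1 call with IFNb was lost without any single IFNAR1sg IFNb or DMSO library or without IFNAR1sg MPS1i replicate 1 (adjusted p between 0.0506 and 0.503), and without regions over exons of the other strand (adjusted p = 0.782).

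Single regions showed where along the genes the reads were lower. The test could be made in 208 regions, 171 intronic ones in 28 genes and 37 exon-sharing ones in 20 genes. With MPS1i 36 of the 171 intronic regions were lower in IFNAR1sg cells, against 11.9% of 48699 intronic regions of all genes, and 36 in SCR cells, against 11.8%. With IFNb 60 were lower in SCR cells, against 25.4%. HNRNPC held many of the lower regions that lie away from exons. It had 17 of 34 in IFNAR1sg MPS1i, 14 of 33 in SCR MPS1i and 25 of 58 in SCR IFNb cells. The counts thus lean on 1 gene, and regions of the same gene are not independent of each other. Of the 37 exon-sharing regions 10 were higher with MPS1i in SCR cells, against 19.3% of 9353 such regions, and 26 with IFNb, against 44.8%. The median change of the intronic regions was -0.73 in IFNAR1sg and -0.92 in SCR cells with MPS1i, and -1.43 in SCR cells with IFNb. Over all intronic regions these medians were -0.37, -0.46 and -1.05. The count of called regions in SCR MPS1i cells was 50 in both classes together and 25 to 31 without SCR DMSO replicate 1, SCR MPS1i replicate 1 or SCR MPS1i replicate 2. With IFNb it was 93, and 56 to 59 without SCR DMSO replicate 1 or either SCR IFNb library. With MPS1i in IFNAR1sg cells it was 42, and 21 to 27 without either IFNAR1sg DMSO library or MPS1i replicate 2.

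The region with the smallest p with MPS1i in SCR cells lay in RBM39, at chr20:35721908-35724310, and covers 2403 bp of the 2692 bp intron between exons 8 and 9. It had 12.3 and 13 CPM in IFNAR1sg MPS1i and 40.0 and 52.8 CPM in IFNAR1sg IFNb libraries, against 42.0 and 57.1 CPM in IFNAR1sg DMSO libraries. The RBM39 region in SCR cells had 8.09 and 10.4 CPM with MPS1i and 11 and 12.6 CPM with IFNb, against 52.8 and 52.3 CPM with DMSO. Its change with MPS1i was -1.97 in IFNAR1sg and -2.49 ± 0.22 in SCR cells, and with IFNb -0.10 in IFNAR1sg and -2.15 ± 0.23 in SCR cells. The region of 125 bp between this one and exon 8 did not follow it, with 29.9 and 21.6 CPM in IFNAR1sg MPS1i against 28.8 and 20.5 CPM in IFNAR1sg DMSO libraries, and 47.3 and 33.8 CPM in SCR MPS1i against 29 and 26.9 CPM in SCR DMSO libraries. Another RBM39 intron, between exons 6 and 7, fell over 3167 bp at chr20:35726145-35729311, in a region flush with an exon. Its region had 11 and 13.7 CPM in IFNAR1sg MPS1i against 41.7 and 49.4 CPM in IFNAR1sg DMSO libraries, and 10.1 and 13.7 CPM in SCR MPS1i against 47.0 and 48.3 CPM in SCR DMSO libraries. Of the 14 tested RBM39 regions that lie away from exons 4 fell with MPS1i in IFNAR1sg cells and 3 in SCR cells.

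**Figure D3:**
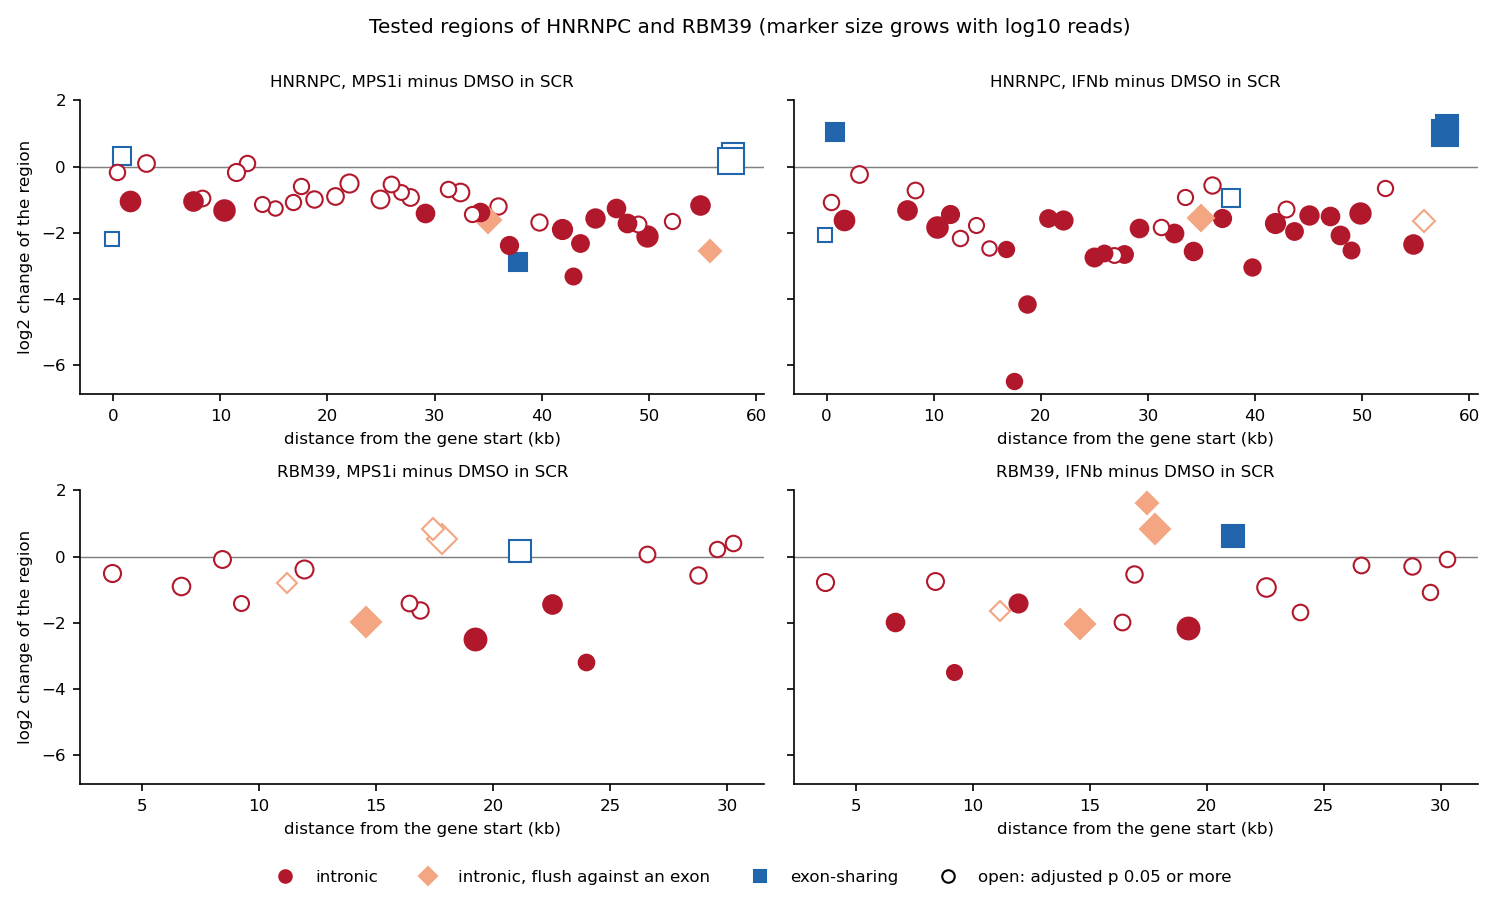
Log2 change of each tested region of HNRNPC and RBM39 against its distance in kb from the start of the gene, with MPS1i and with IFNb in SCR cells, each against DMSO; colours mark intronic and exon-sharing regions and filled symbols passed an adjusted p of 0.05. In RBM39 the regions that passed with MPS1i sit at -3.17, -2.49, -1.98 and -1.42, and in HNRNPC lower regions run along the long introns.

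In HNRNPC the regions that fell were spread over long introns. Of its 37 tested regions away from exons 17 fell with MPS1i in IFNAR1sg cells, 14 with MPS1i in SCR cells and 25 with IFNb in SCR cells. The region with the smallest p, at chr14:21219124-21220236 in the 17201 bp intron between exons 5 and 6, had 8.96 and 9.26 CPM in IFNAR1sg MPS1i against 23.1 and 21.5 CPM in IFNAR1sg DMSO libraries. The HNRNPC region in SCR cells had 5.81 and 4.76 CPM with MPS1i and 8.22 and 8.61 CPM with IFNb, against 23.7 and 20.6 CPM with DMSO. Its changes with MPS1i were -1.29 in IFNAR1sg and -2.08 ± 0.27 in SCR cells. The region of 2 bp at the end of exon 7 had 145 and 131 CPM in IFNAR1sg MPS1i against 171 and 174 CPM in IFNAR1sg DMSO libraries, and 327 and 322 CPM in SCR IFNb against 149 and 172 CPM in SCR DMSO libraries. An exon-sharing region of HNRNPC fell with MPS1i, that at chr14:21231422-21232065, which shares a base with the first exon of an annotated transcript. It had 3.47 and 1.75 CPM in IFNAR1sg MPS1i against 7.46 and 8.47 CPM in IFNAR1sg DMSO libraries, and 0.758 and 0.881 CPM in SCR MPS1i against 5.86 and 6.65 CPM in SCR DMSO libraries (-1.62 and -2.88).

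In PTBP1 most intronic reads lay in 1 region, chr19:808767-810306, which covers 1540 bp of the 1780 bp intron between exons 12 and 13 and names 2 Alu elements. It had 12 and 10.5 CPM in IFNAR1sg MPS1i and 32.8 and 37.2 CPM in IFNAR1sg IFNb libraries, against 40.4 and 49.8 CPM in IFNAR1sg DMSO libraries. The PTBP1 region in SCR cells had 8.34 and 11.6 CPM with MPS1i and 12.5 and 12 CPM with IFNb, against 39.1 and 30.1 CPM with DMSO. The fall with MPS1i was -2.01 in IFNAR1sg and -1.77 ± 0.23 in SCR cells. In the same gene the region that ends in the first base of exon 3 had 35 and 36 CPM in IFNAR1sg MPS1i against 37.5 and 42.5 CPM in IFNAR1sg DMSO libraries, and 88.2 and 95.1 CPM in SCR IFNb against 37.8 and 25.2 CPM in SCR DMSO libraries (1.54 ± 0.19). The intron after exon 1 of HNRNPA3 fell at chr2:177213418-177214202 (-1.48 in IFNAR1sg and -2.09 ± 0.37 in SCR cells with MPS1i). That region had 4.77 and 3.22 CPM in IFNAR1sg MPS1i against 13.7 and 8.87 CPM in IFNAR1sg DMSO libraries, and 3.29 and 2.11 CPM in SCR MPS1i against 14.2 and 8.08 CPM in SCR DMSO libraries. The intron between exons 2 and 3 of SON fell at chr21:33547917-33549081 (-1.34 in IFNAR1sg and -2.28 ± 0.54 in SCR cells with MPS1i). The first intron of HNRNPF, at chr10:43402136-43402894, fell in SCR cells (-1.87 ± 0.45) and did not pass in IFNAR1sg cells (-0.60). For RBM25 the smallest p belonged to the region behind exon 7, with 60.3 and 64.7 CPM in IFNAR1sg MPS1i against 55.9 and 57.0 CPM in IFNAR1sg DMSO libraries, and 95.8 and 72.1 CPM in SCR MPS1i against 45.1 and 36 CPM in SCR DMSO libraries (0.15 and 1.04 ± 0.17).

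Most of the rise of HNRNPA2B1 with MPS1i lay in the regions chr7:26177463-26184072 and chr7:26185279-26189664. In IFNAR1sg cells its intronic reads outside these regions were also higher in both MPS1i libraries than in both DMSO libraries. Both regions lie in an intron of 1 of its 9 annotated transcripts and over exons of NFE2L3 on the other strand. The first had 8.38 and 9.39 CPM in IFNAR1sg MPS1i against 4.37 and 3.65 CPM in IFNAR1sg DMSO libraries, and 9.35 and 8.63 CPM in SCR MPS1i against 2.73 and 3.33 CPM in SCR DMSO libraries. With IFNb it went the other way in SCR cells, at 1.22 and 0.308 CPM (-1.95). The second had 14.6 and 10.7 CPM in IFNAR1sg MPS1i against 7.46 and 6.13 CPM in IFNAR1sg DMSO libraries, and 13.1 and 10.6 CPM in SCR MPS1i against 7.22 and 4.44 CPM in SCR DMSO libraries. In TRA2A a region of 107 bp flush with an exon, chr7:23512787-23512893, rose in SCR cells with MPS1i (0.78) and with IFNb (1.5) while the summed intronic reads of the gene did not change beyond the test.

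The tested intronic regions were also split by what they touch and hold. Of 159 that lie away from exons 34 fell and 3 rose with MPS1i in IFNAR1sg cells, against 12% and 4.1% of all 46719 such regions. In SCR cells 33 fell and 2 rose with MPS1i, against 11.9% and 4.45%, and 58 fell and 2 rose with IFNb, against 25.8% and 5.14%. Of 12 that abut an exon without sharing a base 2 fell with MPS1i in IFNAR1sg cells, against 10.8% of all 1980 such regions. In SCR cells 3 of these 12 fell and 1 rose with MPS1i, against 9.04% and 9.6%, and 2 fell and 4 rose with IFNb, against 13.6% and 18.1%. HNRNPC holds 37 of the 159 regions, and its large part in these falls is given above. Among the 159 regions 61 name an Alu element or a monomer of it and 98 do not. With MPS1i in SCR cells 12 of the 61 fell, with a median of -0.97, and 21 of the 98, with a median of -0.82. With IFNb in SCR cells 23 of the 61 fell, with a median of -1.50, and 35 of the 98, with a median of -1.42. The fall was thus seen in regions of these genes with and without a named Alu. A difference between them was not tested, and the shares over all genes were not counted for this split.

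**Figure D4:**
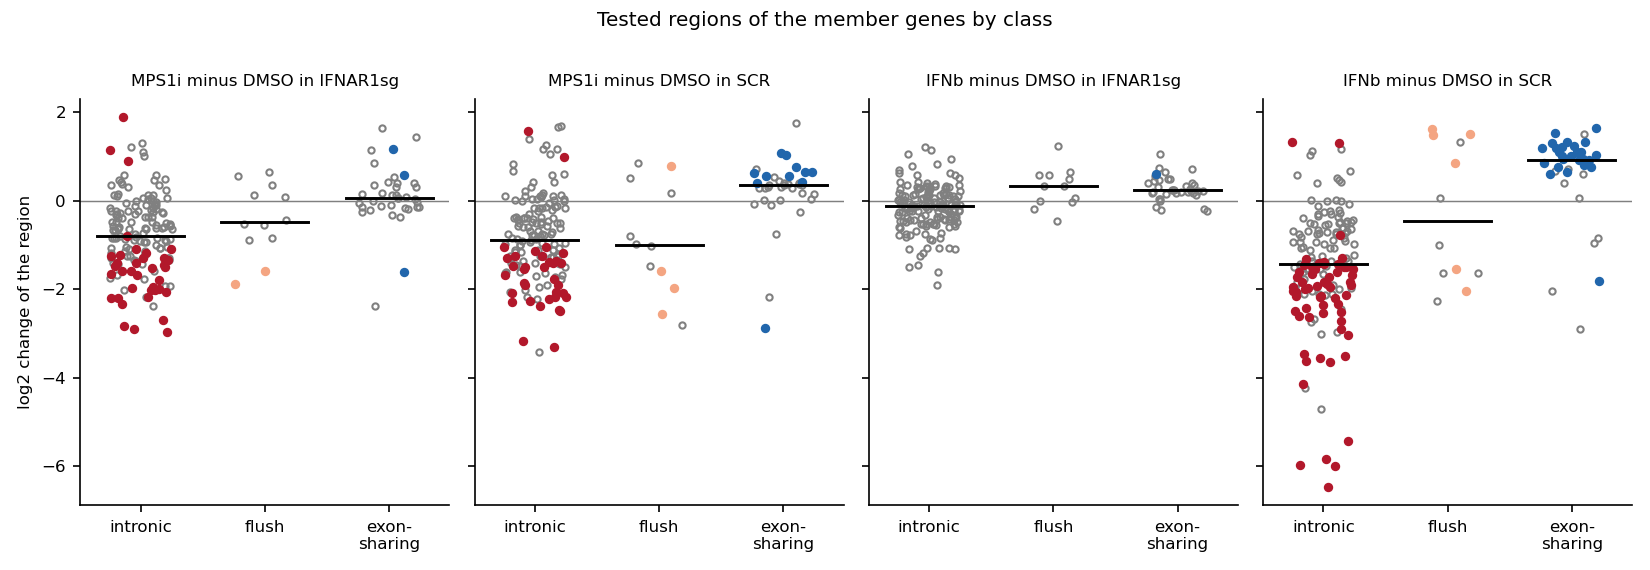
Log2 change of the 208 tested regions in 4 comparisons, split into 159 intronic regions away from exons, 12 intronic regions flush with an exon and 37 exon-sharing regions; each point is a region and the black line is the median of its class. With IFNb the medians are -0.12, 0.33 and 0.24 in IFNAR1sg cells, and -1.43, -0.47 and 0.93 in SCR cells.

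Without treatment the genotypes were close. None of the 31 intronic sums differed between IFNAR1sg DMSO and SCR DMSO cells (median 0.107; 4 at an unadjusted p under 0.05; DESeq2's Wald test 0, with 2 at that unadjusted p), and 0.0767% of all genes did. The genotypes were then compared in their responses, as the change in IFNAR1sg cells minus the change in SCR cells. For MPS1i 2 of 31 intronic sums differed, PTBP2 (0.93 ± 0.26, adjusted p = 0.032) and SRSF6 (-3.81 ± 1.08, adjusted p = 0.041), against 1.43% of all genes, and DESeq2's Wald test called 0. The PTBP2 call was lost without any one of 7 of the 8 MPS1i and DMSO libraries (adjusted p from 0.0896 to 0.208; IFNAR1sg MPS1i replicate 1 was the other). The SRSF6 call was lost without any one of 6 of these 8 libraries (adjusted p from 0.0565 to 0.318; the DMSO replicates numbered 1 were the others). Among exon-sharing sums HNRNPU differed (-0.68 ± 0.17, adjusted p = 0.035), 1 of 20 against 1.28% of all genes that were lower, and its call was lost without any one of 5 of the 8 libraries, both IFNAR1sg DMSO, IFNAR1sg MPS1i replicate 2, SCR DMSO replicate 2 and SCR MPS1i replicate 1 (adjusted p from 0.0713 to 0.182). Of the 18 differences between intronic and exon-sharing reads that of SRSF6 alone passed (-3.61 ± 0.82, adjusted p = 0.040), against 0.17% of all genes, and it was lost in the fits without a single library for 9 of the 12 libraries (adjusted p from 0.057 to 0.275). For IFNb 16 of 31 intronic sums had a less negative change in IFNAR1sg cells, with a median of 0.79, against 28.9% of all genes and a median of 0.55. With library sizes from intronic reads 6 were higher and 2 lower, with a median of 0.28 for the 31 and of 0.05 for all genes. Over all 14348 genes 1891 genes were then higher and 10.1% lower. Of the exon-sharing sums 11 of 20 had a less positive change in IFNAR1sg cells, with a median of -0.71, against 29.7% of all genes. On the scale that does not depend on the library size, 10 of 18 differences were higher in IFNAR1sg cells, with a median of 1.15, against 47.7% of all genes and a median of 1.20. HNRNPC (2.35 ± 0.21, adjusted p = 4.1e-13) and PTBP1 (2.22 ± 0.30, adjusted p = 1.4e-08) led these. All comparisons within a genotype share the same DMSO libraries.

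Lists of other genes of the splicing pathway, from general knowledge of it, gave the following counts of intronic sums in IFNAR1sg MPS1i, SCR MPS1i and SCR IFNb cells, each against DMSO. The shares over all genes, given above, were 19.7% lower and 27.1% higher in IFNAR1sg MPS1i cells, 22% lower and 22.2% higher in SCR MPS1i cells, and 39.3% lower and 8.01% higher in SCR IFNb cells. In the core spliceosome 18 of 33 fell and 1 rose in IFNAR1sg MPS1i cells, 19 fell and 1 rose in SCR MPS1i cells, and 21 fell and 3 rose in SCR IFNb cells. SF3B3, a subunit of the SF3B complex that binds the branch site, had 36.3 and 34.9 CPM in IFNAR1sg MPS1i against 93.7 and 89.2 CPM in IFNAR1sg DMSO libraries, and 36.9 and 32.6 CPM in SCR MPS1i against 89.6 and 89.0 CPM in SCR DMSO libraries. Other splicing regulators had 15 of 28 lower and 1 higher in IFNAR1sg MPS1i, 14 lower in SCR MPS1i, and 21 lower and 1 higher in SCR IFNb cells. Among these LUC7L, a U1-associated protein, changed by -1.63 ± 0.17 with MPS1i and by -2.15 ± 0.20 with IFNb in SCR cells. A list of SR kinases and a phosphatase, which also holds PNISR, had 2 of 8 lower and 1 higher, 4 lower and 1 higher, and 4 lower and 1 higher in the same order. PNISR is neither a kinase nor a phosphatase, and it was among the lower genes in SCR cells with MPS1i (-1.25 ± 0.21) and IFNb (-1.62 ± 0.23). DYRK1A, a kinase of speckle proteins, changed by -0.91 ± 0.14 with MPS1i and by -1.51 ± 0.15 with IFNb in SCR cells. Genes of nonsense-mediated decay and the exon junction complex had 5 of 15 lower and 1 higher, 6 lower and 3 higher, and 7 lower and 3 higher. EIF4A3, the helicase at the core of that complex, rose with MPS1i in SCR cells (1.43 ± 0.24). Other genes with a known regulated intron had 2 of 9 lower and 1 higher, 3 lower and 2 higher, and 6 lower.

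The other strand of these genes held 35 tested regions with no gene on their own strand, over 31 of the genes. With IFNb in SCR cells 26 of 35 were higher, with a median of 0.94, against 30.9% of all regions that lie only antisense to a gene. With MPS1i 1 of 35 was higher in IFNAR1sg cells, with a median of 0.17, against 23.1% and a median of 0.56 over all such regions. In SCR cells 3 were higher with MPS1i, with a median of 0.22, against 16% and a median of 0.38.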

How the data were processed

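The deposited table gives, for all 12 libraries, raw counts of reads in regions of hg38 that each have a strand. Tools named per the submitters' processing notes were STAR, featureCounts, HOMER, cutadapt, Trimmomatic and Trim Galore, with GRCh38 and hg38 as builds. The counting of overlaps, strands and reads that align to several places is not described in the sources used here. Of the regions 46.1% had 0 reads, and exon-sharing regions held 37.2% of reads. Regions were placed on GENCODE 29 genes with bedtools 2.31.1, and 58207 of 58780 gene identifiers matched a current symbol.

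Sums per gene and single regions were tested with edgeR 4.0.16 in R 4.3.3 by the quasi-likelihood F-test (TMM from all regions; filterByExpr with minimum count 10, minimum total 15 and proportion 0.7). All 12 libraries were fitted with 1 coefficient per group, and Benjamini-Hochberg adjustment ran over all features of a class. Standard errors were taken as |log2 change| over the root of the F statistic. It is unreliable near 0. The difference between classes was fitted on both sums of each gene with the library as a covariate. DESeq2 1.42.0 and the other alternatives are given in the closing section. In simulated data with a log2 change of 1 in SCR MPS1i, 48.5% of changed intronic sums, 57.5% of exon-sharing sums, 33.0% of differences and 2.0% of regions were recovered, with 4, 7, 4 and 1 false calls. The simulated counts had 1 dispersion per class and 200 changed features picked at random. They held no shift shared by many genes, unlike these libraries, so the low numbers of false calls do not speak for the calls above.

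Replicates of a group differed by more than sampling noise (chi-square per degree of freedom 1.54 to 2.74), and p-values measure only the spread between libraries, which may be technical. The genes, lists and comparisons were chosen with earlier results of these data known. Values in every library are given for the 8 genes with the highest intronic sums, for the genes with the smallest p in each treatment comparison (4 in intronic and 3 in exon-sharing sums), and for the 8 regions with the smallest p in each SCR comparison, at most 1 per gene. Of the other lists the leading genes by p are named. No genome sequence was used, so introns are described by coordinates.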

Additional observations from a re-analysis of the deposited data

Results flagged for a closer look

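The responses of the 2 genotypes differed past the test in the following results, each given as the change in IFNAR1sg cells minus the change in SCR cells on the log2 scale. With MPS1i the intronic sum of PTBP2 differed by 0.928, with 26.6 and 27.8 CPM in IFNAR1sg MPS1i against 32.4 and 32.3 CPM in IFNAR1sg DMSO libraries, and 13.1 and 12.7 CPM in SCR MPS1i against 28.4 and 30.1 CPM in SCR DMSO libraries. The intronic sum of SRSF6 differed by -3.808 and its difference between intronic and exon-sharing reads by -3.607. It had 1.01 and 0.403 CPM in IFNAR1sg MPS1i against 1.46 and 2.35 CPM in IFNAR1sg DMSO libraries, and 2.78 and 1.94 CPM in SCR MPS1i against 0.818 and 0 CPM in SCR DMSO libraries, from 86 reads in all. The exon-sharing sum of HNRNPU differed by -0.68, with lower values in both IFNAR1sg MPS1i libraries than in their controls and higher ones in both SCR MPS1i libraries.

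With IFNb 16 of 31 intronic sums were higher in this comparison of the genotypes, against 28.9% of all genes. Of the exon-sharing sums 11 of 20 were lower, against 29.7%. The difference between intronic and exon-sharing reads was higher for 10 of 18 genes, with a median of 1.15. Over all genes 47.7% were higher, with a median of 1.20, so these genes did not stand out from the others. The difference between intronic and exon-sharing reads was higher in IFNAR1sg cells by 2.35 for HNRNPC, 2.219 for PTBP1, 2.054 for PTBP2, 2.016 for RBM25 and 1.912 for HNRNPM. It was higher by 1.522 for PTBP3, 1.29 for SON, 1.275 for U2AF2, 1.184 for RBM39 and 1.031 for SRSF11. Both SCR IFNb libraries stood apart in all genes, where 47.9 to 49.6% of reads were exon-sharing (the other 10 libraries had 33.2 to 39.7%), and the part of this in the differences was not tested.

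Signal outside the sense strand was seen in 26 of 35 regions antisense to these genes that were higher with IFNb than with DMSO in SCR cells. Over all antisense regions 30.9% were higher. The antisense region over PTBP1 changed by 0.22 in IFNAR1sg and by 1.30 in SCR cells with IFNb, and that over HNRNPF by -0.09 and by 1.48.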

How the results depend on the processing

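With MPS1i and with IFNb in SCR cells, and with MPS1i in IFNAR1sg cells, more intronic sums fell than rose under every setting tried. The 12 intronic changes followed through the alternatives (HNRNPC, RBM39, SRSF4 and PTBP1 in these 3 comparisons) kept direction and call in all 260 values. These genes were those with the smallest p in each of these comparisons, so their stability does not speak for the other sums. Calls of other intronic sums, among them U2AF2, TRA2B, HNRNPM, HNRNPU, SRSF10 and SRSF3, were lost under some of the alternatives. In simulated data 2.0% of log2 changes of 1 in single regions were recovered.

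Leaving out 1 library at a time gave 16 to 20 called intronic sums for MPS1i in SCR cells, 15 to 20 for IFNb in SCR cells, 11 to 15 for MPS1i in IFNAR1sg cells, and 0 for IFNb in IFNAR1sg cells and for the genotypes in DMSO. The differences between genotypes ranged from 0 to 2 with MPS1i and from 12 to 17 with IFNb. For exon-sharing sums the ranges were 4 to 12, 15 to 18, 0 to 1 and 1 to 4 for MPS1i in SCR, IFNb in SCR, MPS1i in IFNAR1sg and IFNb in IFNAR1sg cells, and 0 to 3 and 8 to 12 for the genotype differences with MPS1i and IFNb. For the difference between the classes they were 11 to 14, 13 to 15, 7 to 12, 0 to 1, 0 to 1 and 9 to 11 in that order, and for regions 25 to 54, 56 to 94, 21 to 41, 0 to 2, 0 to 3 and 22 to 46. A group left with 1 library was taken to vary like the others.

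With library sizes from intronic totals 13 intronic sums were called for IFNb in SCR cells in place of 20, 8 in place of 16 for the genotype difference with IFNb, and 1 in place of 2 for that with MPS1i. The exon-sharing counts were then 14 in place of 9 for MPS1i in SCR cells, 4 in place of 0 for MPS1i in IFNAR1sg cells, 4 in place of 2 for IFNb in IFNAR1sg cells, and 4 in place of 1 and 17 in place of 11 for the genotype differences with MPS1i and IFNb, and 1 region in place of 0 differed between genotypes with MPS1i. Over all 14348 genes the 3 intronic counts with these library sizes were 5199, 3345 and 207. Over all 6036 genes the exon-sharing counts were 2718, 1420, 364, 210 and 3283, in the order given. Without TMM the exon-sharing counts were 3 for MPS1i in SCR, 2 for MPS1i in IFNAR1sg, 1 for IFNb in IFNAR1sg and 6 for the genotype difference with IFNb. Over all 6036 genes they were 1223, 868, 219 and 1164. DESeq2's Wald test gave 0 intronic sums for the genotype difference with MPS1i, 1 exon-sharing sum for IFNb in IFNAR1sg cells and 3 for the genotype difference with MPS1i. For regions it gave 25 in place of 50, 61 in place of 93 and 24 in place of 42 for MPS1i in SCR, IFNb in SCR and MPS1i in IFNAR1sg cells, and 1 and 26 in place of 0 and 45 for the genotype differences with MPS1i and IFNb. DESeq2's size factors gave 1 exon-sharing sum for IFNb in IFNAR1sg cells. Without a filter 2 exon-sharing sums differed between genotypes with MPS1i.

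With only the groups compared in the fit, 5 exon-sharing sums were called for MPS1i in SCR cells and 4 for IFNb in IFNAR1sg cells, and the genotype difference with MPS1i had 1 intronic sum and 2 differences between classes. Without both SCR IFNb libraries 1 exon-sharing sum was called for IFNb in IFNAR1sg cells and 0 for the genotype difference with MPS1i. With regions over exons of the other strand left out, 4 exon-sharing sums, 0 differences between classes and 4 regions were called for IFNb in IFNAR1sg cells, and 2 of each for the genotype difference with MPS1i. With regions flush with an exon left out, a setting chosen after seeing the data, the genotype difference with MPS1i had 1 intronic sum and 0 differences between classes. The cause of these shifts was not tested.

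The deviations of same-numbered libraries had correlations between -0.052 and 0.062 in 15 pairs of groups, 0 over 0.1. Such correlations between single differences cannot exclude a small effect shared by libraries of the same number. With the replicate block the intronic counts were 20, 20 and 15 for MPS1i in SCR, IFNb in SCR and MPS1i in IFNAR1sg cells, as without it. The block gave 12 exon-sharing sums in place of 9 for MPS1i in SCR cells and 18 in place of 17 for IFNb in SCR cells. It gave 3 in place of 0 for MPS1i in IFNAR1sg cells and 3 in place of 2 for IFNb in IFNAR1sg cells. For the genotype difference with MPS1i it gave 4 in place of 1. It gave 2 regions each for IFNb in IFNAR1sg cells and for the genotype difference with MPS1i. The difference between classes has the library in its fit already, so a block adds nothing to it.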
